A study of Mus musculus with 6 samples.

Results

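The monocytes of the bone marrow of 89-week-old wild-type mice were examined in a Xenium section, a method that counts single transcripts in place inside outlined cells. They are the 2310 cells, of 143810 in the section, that held at least 3 counts summed over Ccr2, F13a1 and Ms4a6c and fewer than 2 counts summed over C1qa, C1qb and C1qc. The rule also names Ly6c2, the gene of the classical surface marker of inflammatory monocytes, but that gene was not among the 5050 genes of the panel, so the selection rested on 3 genes. The study imaged 6 mouse sections of hematopoietic tissue with 521938 cells in all, each from wild-type mice: fetal liver at E13.5 and E14.5, bone marrow at P8 and 89 weeks, and spleen without treatment and after phenylhydrazine (PHZ). For the 89-week sample, marrow was freed from thick slices of frozen femur without decalcification, embedded in paraffin and cut at 5 µm. This condition had 1 section, and the number of animals behind it is not given in the sources used here, so no test between animals was possible. Every interval given here is a 95% interval for counting error only.

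Monocytes arise in the bone marrow from progenitors that also give rise to granulocytes, and pass through a dividing, granule-rich stage before they leave for the blood through the chemokine receptor Ccr2. Classical monocytes carry Ly6c and Ccr2 and can become macrophages or dendritic-like cells in tissues, whereas nonclassical monocytes carry Cx3cr1 and patrol vessels. Marrow macrophages at the center of erythroblastic islands, with erythroid cells around them, carry C1q and the machinery that clears expelled nuclei, and they are a separate population.

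The name monocytes stands here for all cells that met the rule, and not for an identity settled in each cell. The selection drew on a mixture of its genes. F13a1, the coagulation factor XIII A chain made by monocytes and megakaryocytes, supplied 67.2% of the 10334 rule counts, Ms4a6c, a tetraspan membrane protein of myeloid cells, 23.7%, and Ccr2 9.05%. F13a1 was detected in 94.7% of the monocytes, Ms4a6c in 63.0% and Ccr2 in 31.3%. All 3 genes were detected in 399 monocytes, and 602 monocytes (26.1%) were chosen by F13a1 alone. Set against other cells, the chosen cells held F13a1 at 20.1, Ccr2 at 15.7 and Ms4a6c at 13.9 times the level, which describes the selection and supports nothing further. The C1q limit kept out 170 of the 2480 cells with enough rule counts (6.85%, 5.89 to 7.92), and 11.7% of the monocytes held a single C1q count.

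The monocytes made up 1.61% of the cells (1.54 to 1.67) and held 3.83% of the 13053261 gene counts. They were deeper and larger than the rest: the median was 178 counts and a cell area of 43.1 µm², against 59 counts and 28.2 µm² in other cells. Nuclei measured 23.2 µm² against 16.9 µm² at the median. The rule asks for a fixed number of counts, and the share of monocytes increased with depth, from 0.0897% of the cells with under 50 counts to 9.16% of those with at least 400. The rule's dependence on depth and a greater depth of monocytes cannot be told apart here. Levels are given as counts per 1000000 gene counts (CPM), pooled over the cells of a class, and a ratio is the CPM of the monocytes over that of all other cells. Cells of 1 section share their tissue and handling and are not replicates, and the section was therefore divided at its median x and median y into 4 fields, and the range over the fields shows how far a ratio varied within it.

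Genes that the rule did not use changed gradually across the threshold of 3 counts. Among cells under the C1q limit, 2490 cells just outside the threshold, with 2 rule counts, held Fn1 at 2004 CPM, and 1002 cells just inside, with 3 counts, held it at 2449 CPM. Fn1, which encodes the matrix protein fibronectin, was at 135 CPM in cells with no rule count and at 4926 CPM in the 311 cells with 7 or more. S100a4, a calcium-binding protein of motile myeloid cells, stood at 476 CPM with no rule count, 3595 CPM with 2, 4504 CPM with 3 and 7450 CPM with 7 or more. The pooled level of the listed monocyte genes outside the rule was 26039, 52096, 60121 and 76653 CPM at the same counts. Cells just below the threshold thus carried monocyte genes well above the cells with no rule count. The median depth rose as well, from 53 counts in cells with no rule count to 301 in those with 7 or more. Levels pooled over cells cannot show whether single cells form a continuous range or whether separate populations are mixed at each count. Megakaryocyte genes followed another course. Their pooled level was 9654 CPM with no rule count, 26783 CPM with 2, 20336 CPM with 3 and 2432 CPM with 7 or more, so the cells near the threshold held the most of them.

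**Figure D1:**
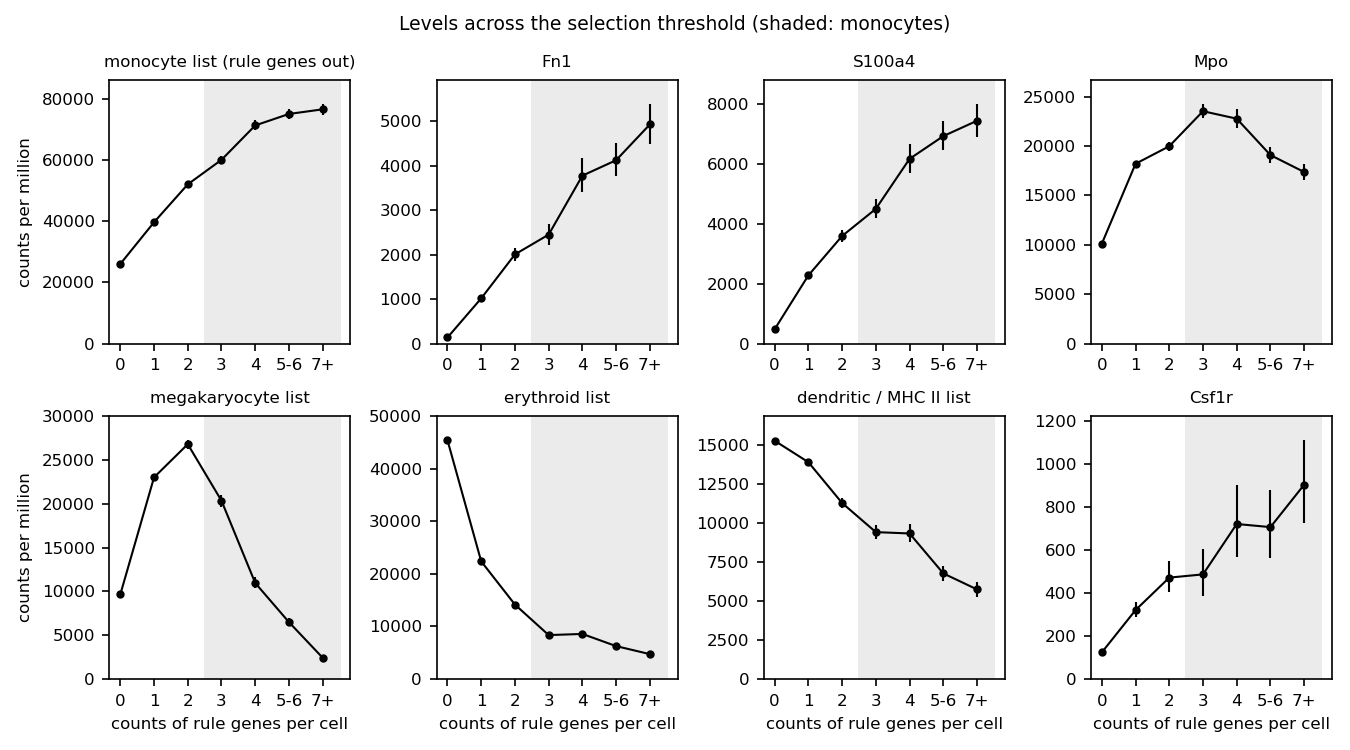
Pooled levels in CPM (vertical axes from 0) of single genes and gene lists in cells grouped by their counts of Ccr2, F13a1 and Ms4a6c (horizontal axes), with 95% counting intervals; the shaded groups are the monocytes. Fn1 climbed from 135 to 4926 CPM over the groups, while the megakaryocyte list was highest, at 26783 CPM, in cells with 2 counts.

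Of 2600 genes with an expected monocyte count of at least 20, 115 (4.42%) were at least 2-fold higher in the monocytes and 305 (11.7%) were at 0.5 times the level of other cells or less. The median ratio over these genes was 1.01. Of these, 114 and 302 genes lay on the same side of 1 in all 4 fields. Leaving out the monocytes with 3 or more counts over the whole megakaryocyte list, a choice made after seeing the data, gave 128 higher and 364 lower genes of 2522.

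Fibronectin and S100a4 led the genes outside the rule among the 2600 counted. Fn1 was at 3540 CPM in the monocytes and 274 CPM in other cells, a ratio of 12.9 (12.2 to 13.7), with 12.1 to 14.4 over the fields. S100a4 was at 5889 against 731 CPM, a ratio of 8.05 (7.72 to 8.39). When every cell was thinned to 50 counts, which left out 55 monocytes and 61236 other cells, Fn1 was seen in 16.7% of monocytes, 1.38% of other cells and 0.281% of erythroid cells, which should lack it. Unthinned, the shares were 36.4%, 1.77% and 0.862%. Gria3, a subunit of the AMPA glutamate receptor, followed with a ratio of 6.69 (5.76 to 7.75), at 462 against 69.1 CPM. Klf4, a zinc-finger transcription factor needed for monocyte formation, had a ratio of 6.50 (5.50 to 7.65), at 372 against 57.3 CPM. Naaa, a lysosomal amidase that breaks down bioactive lipids, had a ratio of 6.32 (5.48 to 7.27). In each field these 5 genes kept a ratio of at least 4.70.

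The rest of the 20 highest ratios belonged to genes of varied function. Among them were Il6ra, the interleukin-6 receptor, at 4.38 (3.85 to 4.96), and Csf1r, the receptor for the growth factor that sustains monocytes and macrophages, at 3.63 (3.22 to 4.07). Genes of innate sensing were Ticam2, an adaptor of Toll-like receptor signaling, at 4.28, Nlrp3, the inflammasome sensor, at 3.81 (2.95 to 4.86), and P2rx7, an ATP-gated channel that can trigger that inflammasome, at 3.53. Nlrp3 depended on the weighting, at 2.42 as the mean over each cell's CPM and 6.53 with other cells weighted to the depth of the monocytes. It was not alone. Under the depth weighting 16 of the highest and lowest ratios moved by more than their standard deviation over the fields, and 14 did not. Fn1 was then at 18.8, S100a4 at 10.9, Klf4 at 8.63 and Csf1r at 4.82. Of the 20 highest, Plppr3, Hpse, Cd34 and Mlkl fell, to 3.55, 3.38, 2.96 and 3.30. Mlkl, which executes necroptosis, was at 3.33. Itgb7, the integrin beta 7 chain, was at 4.26 (3.90 to 4.63), and Ctsc, the protease that activates granule serine proteases, at 3.38 (3.23 to 3.54). Enzymes of the cell surface and of sterol metabolism were also among them: Sulf2, which trims heparan sulfate, at 3.89, Hpse, heparanase, at 3.75, and Cyp27a1, a sterol hydroxylase, at 3.77. Plppr3 was at 4.14, Dglucy at 3.58, Cd34, a progenitor surface protein, at 3.52, and Hopx at 3.36. Single fields moved some of these, Hpse from 2.24 to 5.57, Cyp27a1 down to 2.47, Nlrp3 to 2.57 and Dglucy to 2.15. Not all were highest in the monocytes when single classes were set beside them: Ctsc was at 5033 CPM in C1q-positive cells (at least 3 C1q counts) against 4210 CPM in the monocytes. Csf1r and Sulf2 were only a little higher in the monocytes, at 656 and 248 CPM against 584 and 228 CPM in C1q-positive cells. In early granule cells (other cells with at least 10 counts of Elane, Mpo, Prtn3 and Ctsg and fewer of Ltf, Lcn2, Fcnb and Cd177), Plppr3 was at 473 CPM against 370 CPM and Cd34 at 219 against 188 CPM.

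The lowest ratios belonged to a phagocytic receptor, to transporters and to other genes, most of them higher in erythroid cells than in all other cells together. Mertk, the receptor by which macrophages take up dying cells and expelled nuclei, had 2 counts in the monocytes and a ratio of 0.068 (0.0082 to 0.25). It was at 404 CPM in C1q-positive cells, which the rule kept out, so its ratio is a description only. Abcb4, a phospholipid transporter, was at 0.133 and Slc6a9, a glycine transporter that erythroid cells use for heme, at 0.0974. Of the 10 lowest, 6 more (Rsph1, Garem1, Gfap, Atp1b2, Rec8 and Agtr1a) lay between 0.0853 and 0.125, and none of them had more than 11 counts in the monocytes. Abcb4 was at 1067 CPM in erythroid cells against 390 CPM in all other cells together, and Gfap at 516 against 172 CPM. Slc6a9, Garem1, Atp1b2, Rec8 and Agtr1a were also higher in erythroid cells. Mertk and Rsph1 were lower there, at 21.2 and 8.55 CPM against 58.7 and 46.9 CPM.

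**Figure D2:**
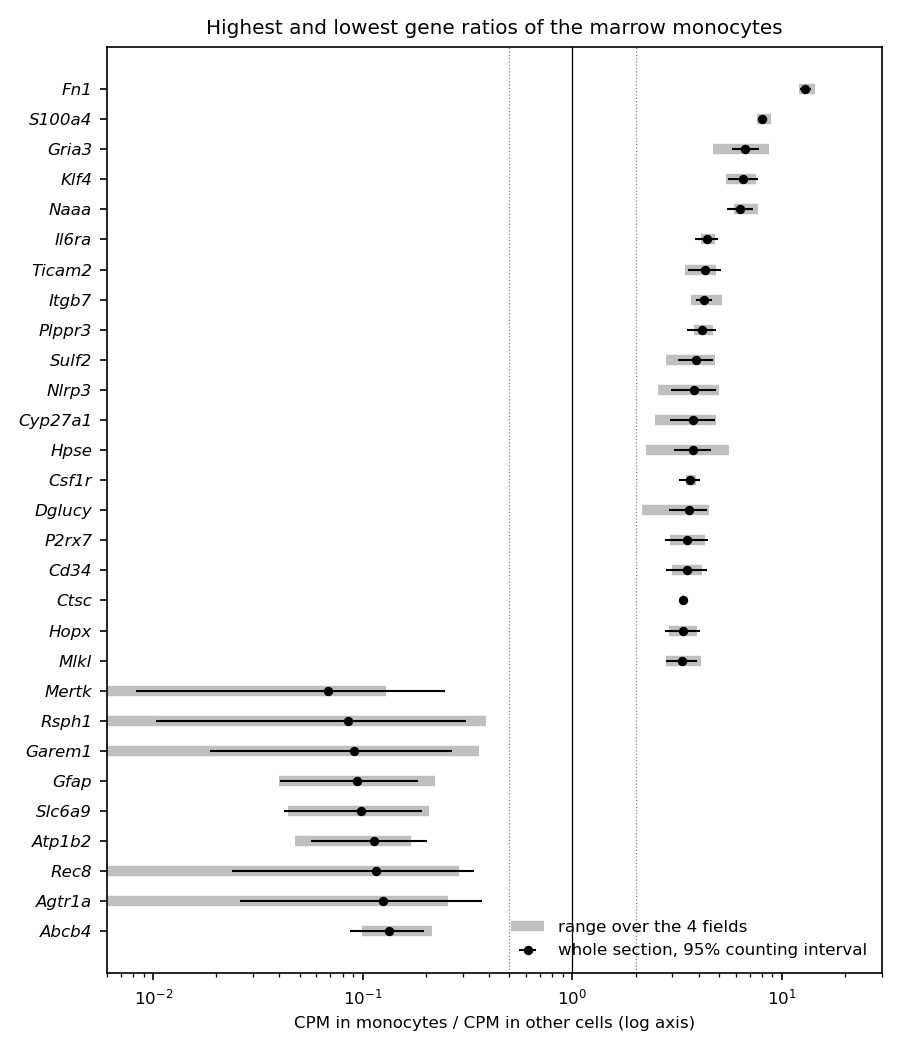
Ratio of the pooled CPM of the monocytes to that of other cells (horizontal log axis) for the 20 highest and 9 of the 10 lowest of the genes that lay on the same side of 1 in all fields; points with lines are the whole section with its 95% counting interval, and grey bars span the 4 fields, reaching the left edge where a field had no count. Fn1 at 12.9 stood apart from the other genes. S100a4 followed at 8.05, with a field range of 7.58 to 8.86 that overlapped the 4.70 to 8.65 of Gria3.

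Most of the listed monocyte genes outside the rule were higher than in other cells. Of 14 genes counted, 9 were at least 2-fold higher, none was at 0.5 or below, and the median ratio was 2.14, beside 4.42% higher and a median of 1.01 over all genes. Beside Fn1, S100a4 and Csf1r, these included Plac8 at 3.11, Lyz2, the lysozyme of myeloid cells, at 2.30, Fcgr1, the high-affinity IgG receptor, at 2.18, and Cd68 and Ctss, both of the lysosome, at 2.10 each. Vcan, a matrix proteoglycan of classical monocytes, had too few counts for that list, at 214 against 21.0 CPM. Chil3, a secreted chitinase-like protein, stood at 0.781, Itgam, the integrin CD11b, at 0.883 and Aif1 at 1.03. The late granule cells, defined here by Ltf, Lcn2, Fcnb and Cd177, held Chil3 at 21515 CPM and Lyz2 at 39110 CPM, against 26720 CPM for Lyz2 in the monocytes, and all other cells together had Chil3 at 4053 CPM against 3164 CPM in the monocytes. The summed list was at 67864 CPM in the monocytes and 70483 CPM in the late granule cells, so its total did not separate the monocytes from them, whereas Fn1, S100a4, Csf1r and Plac8 were at 92.3, 309.6, 68.0 and 3476 CPM in the late granule cells. Only 4 nonclassical genes were counted, of which none was at least 2-fold higher and 1 was at 0.5 or below, with a median ratio of 1.32, too few to read against the shares over all genes. Cx3cr1, with few counts, was at 142 against 33.9 CPM.

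Myeloid transcription factors lay on both sides. Of 13 counted, 6 were at least 2-fold higher and 3 at 0.5 or below, beside 4.42% and 11.7% over all genes. The higher ones were, beside Klf4, Irf5 at 3.14, Irf8 at 2.52, Zeb2 at 2.38, Cebpa at 2.30 and Spi1, which encodes PU.1, at 2.19. Irf8 and Klf4 direct progenitors toward monocytes, and PU.1 and C/EBP alpha act across the myeloid lineage. The 3 at 0.5 or below included Maf, a factor of mature macrophages, at 0.40 and Irf4 at 0.478. Of the resident macrophage genes, 11 of 15 were at 0.5 or below, with a median ratio of 0.40. Examples are Vcam1, an adhesion molecule of marrow macrophages, at 0.376, Slc40a1, the iron exporter, at 0.296, and Cd163, the scavenger receptor for hemoglobin, at 0.286, while Adgre1, which encodes F4/80, was at 1.24 and Trem2 at 1.87. The C1q limit of the rule bears on macrophage genes, so these ratios are a description only.

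Of 19 receptors for cytokines, 6 were at least 2-fold higher, beside 4.42% of all genes, none was at 0.5 or below, and the median ratio was 1.79. Beside Il6ra and Csf1r, they were the tumor necrosis factor receptors Tnfrsf1b at 2.62 and Tnfrsf1a at 2.00, Flt3, the receptor of dendritic cell progenitors, at 2.16, and Csf2rb, the shared chain for granulocyte-macrophage colony-stimulating factor and interleukin-3, at 2.15. Csf3r, the receptor of the neutrophil growth factor, was at 0.908, and Kit, the stem cell factor receptor, at 0.718. Of 14 adhesion genes, 3 were at least 2-fold higher, among them Itgb7 and Selplg, the ligand of P-selectin, at 2.37, and the integrins Itga4 and Itgb1 lay at 0.882 and 0.913. Among 15 pattern recognition genes, Nlrp3 and Pycard, the inflammasome adaptor, at 2.32, were past 2-fold, and Il1b, the cytokine that this complex releases, was at 0.549. Among 11 genes of the phagocyte oxidase and lysosome, 4 were past 2-fold (Ctsc, Lyz2, Cd68 and Ctss). Interferon response genes showed 1 of 10 higher, Ifi204 at 2.54, and 1 lower, Isg15 at 0.208. Chemokines and their receptors showed none of 9 higher and 2 lower, Cxcr2 at 0.291 and Cxcl9 at 0.401, with a median ratio of 0.655, and the share of all genes at 0.5 or below was 11.7%. Cxcr4, which holds cells in the marrow, was at 1.41.

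Several lists of other lineages were low. All 9 erythroid genes were at 0.5 or below with a median ratio of 0.177, as were all 9 B cell genes (0.296), all 9 T and NK cell genes (0.303) and all 3 plasma cell genes (0.323). Slc4a1, the band 3 anion exchanger of red cells, remained at 1461 CPM in the monocytes against 10682 CPM in other cells, so erythroid transcripts were not absent from these outlines. Of 10 endothelial and 11 stromal genes, 1 and 3 were at 0.5 or below, with median ratios of 0.568 and 0.603, and the endothelial share was under the 11.7% of all genes. The megakaryocyte list, in contrast, was not low: none of its 6 genes was past either limit, its median ratio was 0.996, and its pooled ratio ran from 0.510 to 1.39 over the fields. The 17 cell cycle genes were neither past 2-fold nor at 0.5 or below, with a median of 0.860.

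**Figure D3:**
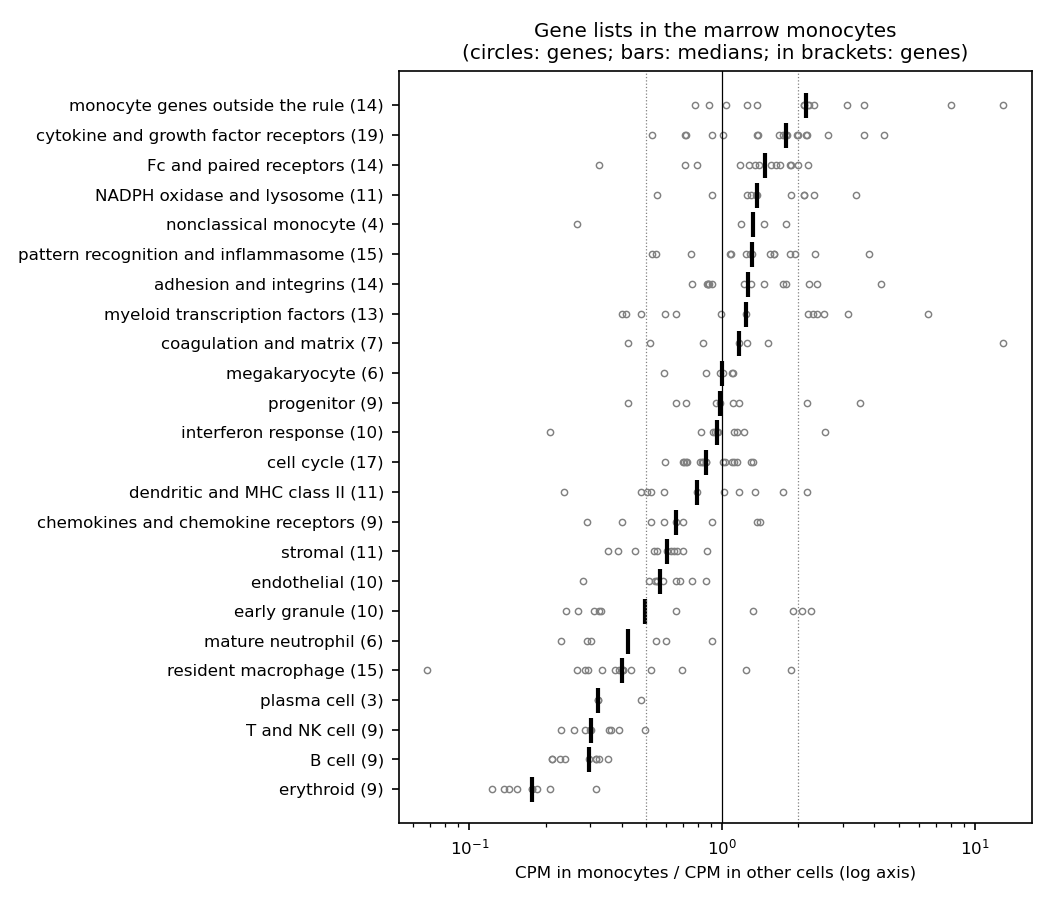
Ratio of monocyte to other-cell CPM (horizontal log axis) for each counted gene (circles) of each fixed list with at least 3 such genes, with the list's median as a bar and the number of genes in brackets; dotted lines mark ratios of 0.5 and 2. The listed monocyte genes had the highest median, 2.14, and the erythroid genes the lowest, 0.177.

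The early granule list divided sharply. Ctsg, Prtn3, Mpo and Elane, which encode cathepsin G, proteinase 3, myeloperoxidase and elastase of the first granules that form, had ratios of 2.25, 2.07, 1.90 and 1.32. Fcnb, Cd177, Lcn2 and Ltf, of granules that neutrophils form later, had 0.327, 0.330, 0.268 and 0.241. Of the 6 mature neutrophil genes, 3 were at 0.5 or below, beside 11.7% of all genes, with Ly6g, the neutrophil surface marker, at 0.230. Pooled over the monocytes, the 4 early transcripts were above their level in other cells and the later ones far below it.

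The early granule transcripts were unevenly spread, and a minority of the monocytes carried most of the pooled level. Elane, Mpo, Prtn3 and Ctsg together supplied at least 5% of the counts in 502 monocytes (21.7%), from 1 to 5% in 475 (20.6%) and under 1% in 1333 (57.7%). These limits were set after seeing the data, the 4 genes were left out of the totals below, and the median depth was 252, 183 and 160 counts. Fn1 stood at 379 CPM in the richest group, 2968 CPM in the middle group and 5528 CPM in the poorest. S100a4 ran the same way, with 1177, 5418 and 8753 CPM, and so did Lyz2, with 8060, 24589 and 38401 CPM. The ratio of the richest to the poorest group was 0.246 (0.22 to 0.28) for Ctss, 0.275 for Itgb7, 0.366 for Irf5, 0.180 (0.056 to 0.44) for Nlrp3 and 0.265 for Naaa. Of the 20 genes with the highest ratios in the whole population, 10 were at 0.5 or below in the richest group relative to the poorest and 4 at least 2-fold higher, beside 11.8% and 10.7% of 1413 genes with an expected count of at least 20 in the richest group. Those 20 genes were chosen by their pooled level in these same monocytes, 57.7% of which were in the poorest group. These counts are therefore a description only. Transcripts of other lineages moved with this split: the megakaryocyte list was at 2297 CPM in the richest group and 19717 CPM in the poorest, with Ppbp at 1757 against 13891 CPM, and Cd74 was at 3288 against 10237 CPM. Their part in the differences between the groups was not tested.

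Other genes ran the opposite way. Cd34 was at 613 CPM in the richest group and 15.5 CPM in the poorest, a ratio of 39.6 (15 to 150). Plppr3 had a ratio of 8.34 (5.5 to 13), Kit 6.82 (3.4 to 15), Gria3 4.21 (3.0 to 6.0), Npm1, a nucleolar protein of growing cells, 3.11, Plac8 2.59 and Irf8 2.48 (2.1 to 3.0). Csf1r, at 0.757 (0.57 to 1.0), Klf4, at 0.829, and F13a1 itself, at 0.893, differed little. Cell cycle genes as a list were at 13613 against 10342 CPM. Among the 20 highest ratios of the whole population, Cd34, Gria3, Plppr3 and Mlkl were at least 2-fold higher in the early granule-rich monocytes than in the poor ones, Fn1, S100a4, Naaa, Il6ra, Itgb7, Nlrp3, Sulf2, Cyp27a1, Ctsc and Hopx were at 0.5 or below, and the other 6 lay between 0.757 and 1.84.

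Early granule transcripts are mainly a feature of granulocyte precursors, so the richest group was set against other cells of the section with the same share, at least 50 counts and fewer than 2 C1q counts. The richest group is called monocytes by the rule alone. It held less Fn1, S100a4 and Lyz2 and more Cd34 and Kit than the poorest group, and its levels do not establish that name. Klf4 was at 5.03 (3.3 to 7.7), Irf8 at 4.13 (3.5 to 4.8) and Csf1r at 3.73 (2.8 to 5.0) times the level of these other cells. Irf5 was at 3.43, Ly86, part of a Toll-like receptor complex, at 3.25 and Itgb7 at 3.22. Other listed monocyte genes differed less or hardly at all, with Ctss at 1.47 (1.3 to 1.7), Cd68 at 1.28 (0.78 to 2.0) and Lyz2 at 1.04 (0.97 to 1.1). Cd34 was at 2.44 (1.9 to 3.2), and Kit at 0.757 (0.52 to 1.1). Chil3 was at 0.339 (0.29 to 0.39) and Ltf at 0.431, while Cebpa, Spi1 and Mki67, a proliferation gene, lay between 0.901 and 1.22. Cells selected by F13a1, Ms4a6c or Ccr2 thus differed from other early granule cells in several genes outside the rule. They were also deeper, with a median of 252 against 111 counts, and 35.3% of them were chosen by F13a1 alone. The part of depth in these values was not tested.

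**Figure D4:**
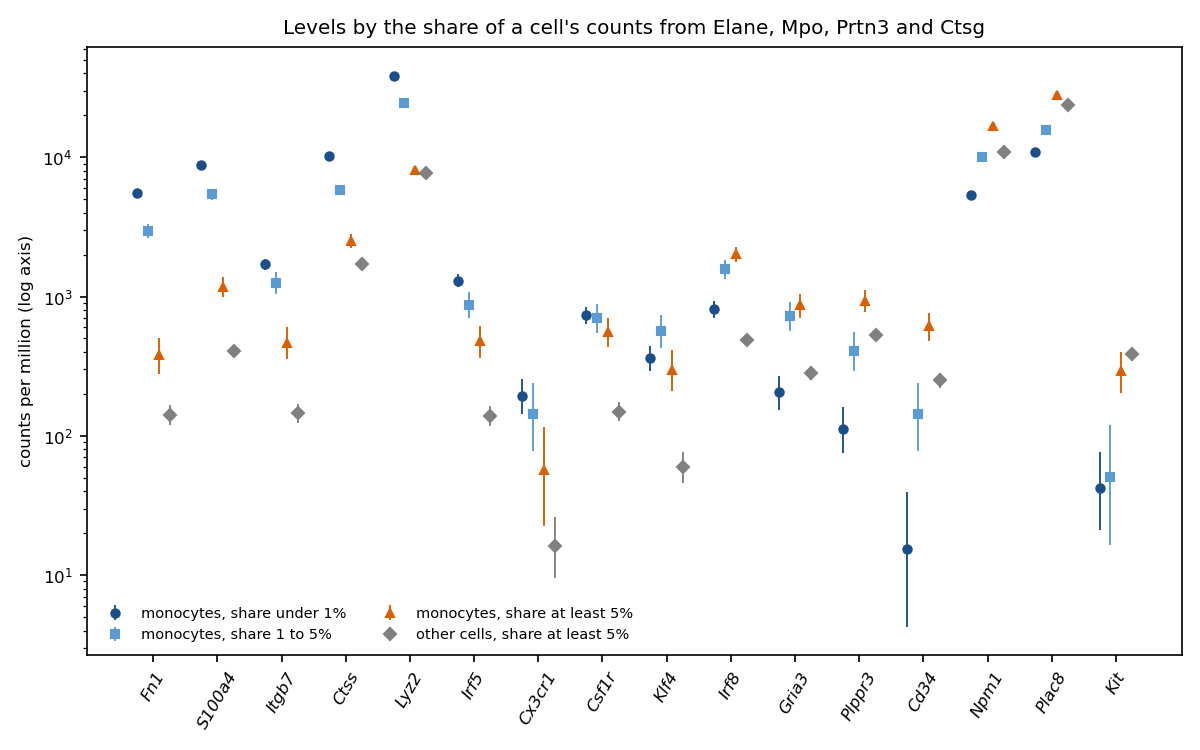
Pooled level (vertical log axis, CPM with the 4 early granule genes left out of the total) of 16 genes in monocytes with an early granule share of their counts under 1%, from 1 to 5% and of at least 5%, and in other cells with a share of at least 5%; lines are 95% counting intervals. Fn1 descended from 5528 to 379 CPM and Cd34 climbed from 15.5 to 613 CPM over the monocyte groups.

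Monocytes chosen through different rule genes also differed, in totals that leave the rule genes out. The 602 chosen by F13a1 alone held Itga2b, the platelet integrin, at 13.7 (11 to 17) and Ppbp, a platelet chemokine, at 8.71 (8.1 to 9.4) times the level of the 1586 with F13a1 and Ccr2 or Ms4a6c. Fn1 was at 0.530, Ctss at 0.507 and Irf5 at 0.452 in the same comparison, and Csf1r at 0.768 (0.58 to 1.0). At least 3 counts over Itga2b, Itgb3, Vwf and Pf4 were found in 6.15% (4.36 to 8.37) of the cells chosen by F13a1 alone and in 1.45% (0.921 to 2.17) of those 1586. Over all cells of the rule, with or without F13a1, 63 held such counts. Their median was a cell area of 80.6 µm² and 346 counts, against 41.9 µm² and 172 counts in the 2118 with no count of these 4 genes. The name monocytes is not established for these 63 cells. Megakaryocytes make F13a1 themselves, and the part of their transcripts in the values of the F13a1-only cells was not tested.

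The 122 monocytes without F13a1 differed in Cd74 and several dendritic cell genes. Cd209a, a lectin of monocyte-derived dendritic cells, was at 11.4 (6.3 to 20), Cd74, the chaperone of MHC class II, at 6.24 (5.8 to 6.8) and Flt3 at 3.98 (1.8 to 8.1) times the level of the 1586 monocytes with F13a1 and another rule gene. Csf1r was at 1.64 (1.0 to 2.5) and Ctss, which processes antigen in that pathway, at 1.85, whereas Fn1 was at 0.518 and Mpo at 0.342. At least 3 Cd74 counts were held by 38.5% (29.9 to 47.8) of these cells and by 14% of the 1586, and the summed dendritic and MHC class II list, at 6.15 times, was mostly Cd74 (38381 of 42247 CPM). Over all monocytes Cd74 was low, at 0.477 times the level of other cells, which include B cells. The 213 monocytes with at least 2% of their counts from Cd74 also held Igkc, an immunoglobulin light chain of B lineage cells, at 7.98 (7.4 to 8.7) times the level of monocytes under 0.5%, beside Cd209a at 18.2 and Flt3 at 4.84. The part of neighboring B lineage cells in that group was not tested.

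Promoter sequence offers a feature that the rule did not use. RefSeq windows from 250 bases before to 50 bases after the annotated start (GRCm38.p6) were available for 2057 of the 2600 genes and for 90 of the 115 higher genes. On either strand, GAGGAAGT, a form of the site bound by PU.1, was present in 11 of these 90 (12.2%, 6.26 to 20.8), in 4.62% of the 2057, in 5.83% of those at 0.5 or below and in 3.69% of all 27025 genes with a window. Its core GGAAGT was present in 41.1% of the higher genes and 33.7% of the 2057. TTGCNNAA, a C/EBP-like site, was present in 13.3% and 11.1%, and an interferon-regulatory-factor-like site, GAAA followed by any 2 bases and a second GAAA, in 7.78% and 4.52%. Without the last base of that site, a form added after the other values were seen and which contains every match of the longer one, the shares were 14.4% and 9.43%. A match is a description of the letters and not a measured site. The 3 higher genes with the largest ratios among those that hold GAGGAAGT are shown, written 5′ to 3′ along the gene. The match is in capitals and in each case is the reverse complement. S100a4 lies on the plus strand at chr3:90603520-90603819 with the match from base 268 of the window, Itgb7 on the minus strand at chr15:102231886-102232185 from base 251, and P2rx7 on the plus strand at chr5:122650133-122650432 from base 254, where base 251 is the annotated start. The place of the match varied among the other higher genes, from base 100 in Ctsc, 156 in Prtn3, 207 in Pycard and 249 in Ctss.
S100a4: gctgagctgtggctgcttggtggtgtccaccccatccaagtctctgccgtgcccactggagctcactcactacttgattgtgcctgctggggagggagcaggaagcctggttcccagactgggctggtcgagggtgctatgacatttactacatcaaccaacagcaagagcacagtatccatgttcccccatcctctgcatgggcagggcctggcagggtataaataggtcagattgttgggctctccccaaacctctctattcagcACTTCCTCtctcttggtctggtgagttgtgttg
Itgb7: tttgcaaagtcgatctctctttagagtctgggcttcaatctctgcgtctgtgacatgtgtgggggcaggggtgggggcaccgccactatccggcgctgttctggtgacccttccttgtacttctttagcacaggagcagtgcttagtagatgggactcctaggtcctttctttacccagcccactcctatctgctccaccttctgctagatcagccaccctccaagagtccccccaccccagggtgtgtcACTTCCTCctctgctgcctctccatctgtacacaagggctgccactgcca
P2rx7: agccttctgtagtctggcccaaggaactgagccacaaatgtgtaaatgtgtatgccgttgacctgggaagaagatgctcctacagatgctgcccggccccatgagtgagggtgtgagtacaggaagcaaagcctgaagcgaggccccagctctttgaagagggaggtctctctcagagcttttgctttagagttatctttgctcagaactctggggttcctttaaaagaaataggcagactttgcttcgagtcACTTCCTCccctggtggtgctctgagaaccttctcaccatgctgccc

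The monocytes were spread over the whole section. Their share was 1.53 to 1.75% in the 4 fields, and over 212 tiles of 200 µm with at least 50 cells it ran from 0 to 8.33% with a median of 1.52%. Only 6 tiles had none.

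**Figure D5:**
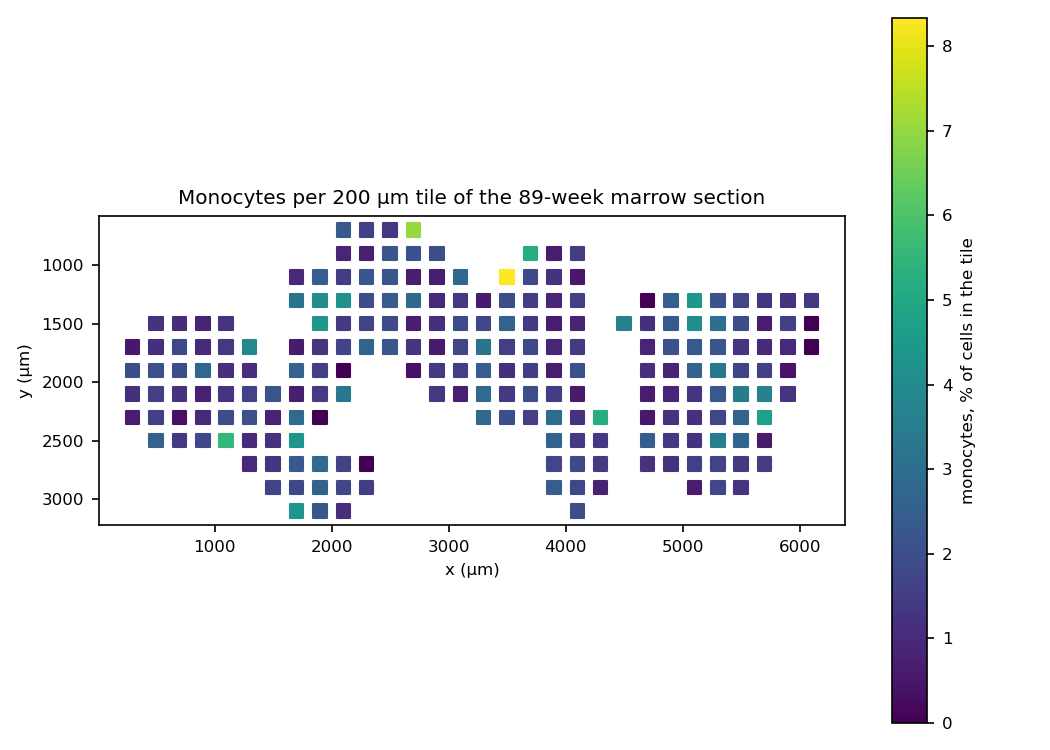
Map of the section in tiles of 200 µm (axes in µm), colored by the share of cells that are monocytes; tiles with under 50 cells are not drawn. The interquartile range of the tiles was 1.12 to 2.23%, and single tiles reached 8.33%.

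Neighbors were taken from the Delaunay network of cell centers. Of the contacts of monocytes, 4.60% led to another monocyte, against 1.65% of the contacts of other cells, and the first share was 4.28 to 5.17% in the fields. The selection follows depth, and the part of local depth in these shares and in those of the tiles was not tested. A monocyte touched at least 1 other in 569 cases (24.6%), and 97 touched 2 or more. The median distance to the nearest other monocyte was 19.5 µm, against 25.9 µm from other cells to the nearest monocyte. The 337 touching pairs had centers a median of 7.05 µm apart, beside 6.33 µm for all touching pairs, and 13.6% of them were closer than 5 µm, beside 21.5%. Contacts of monocytes led to early granule cells (at least 10 counts of their 4 genes) in 6.52% of cases and to erythroid cells (at least 10 counts of Slc4a1, Alas2, Car2 and Klf1) in 7.74%, against 4.55 and 10.5% for other cells, which include the early granule and erythroid cells themselves. For C1q-positive cells, with at least 3 C1q counts, the shares were 3.41 and 2.95%.

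Cells that touched a monocyte but were not monocytes held some monocyte transcripts at a higher level than the rest. In these 12852 cells F13a1 was at 2.44 (2.32 to 2.57), Fn1 at 2.19 (2.02 to 2.37), S100a4 at 2.05 and Klf4 at 1.94 times the level of the 128648 cells that touched none, whereas Csf1r was at 1.36, Lyz2 at 1.12 and the monocyte list outside the rule at 1.18, and the erythroid list was at 0.657. They were also deeper, with a median of 79 against 57 counts. The part of transcripts assigned across outlines, and of unselected monocytes, in these values was not tested. Leaving these cells out of the comparison gave 121 genes at least 2-fold higher and 308 at 0.5 or below.

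The 97 monocytes that touched 2 or more others held monocyte genes at about the level of lone monocytes: the list outside the rule was at 69256 CPM, against 67829 CPM in the 1741 that touched none. Fn1 was at 1.30 (1.06 to 1.58) and S100a4 at 1.24 times the level of lone monocytes. Igkc was at 1.59 (1.39 to 1.81), the cell cycle list at 1.22 (1.08 to 1.36) and the dendritic and MHC class II list at 0.681 (0.563 to 0.816). The 97 were also deeper, with a median of 229 against 172 counts, and the part of depth in these values was not tested. The megakaryocyte list was at 337 against 12653 CPM. Only 7 of 5285 cells of the E13.5 fetal liver, imaged on the same panel, met the same rule (0.132%, 0.0533 to 0.273), too few to describe.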

How the data were processed

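The authors deposited, for each section, counts of decoded transcripts per gene and outlined cell, without normalization, with cell positions and areas. The run description of the 89-week section names Xenium Onboard Analysis 3.1.0.4 and a panel of 5006 predesigned and 44 custom genes, whereas the methods name Space Ranger. All cells of the matrix were kept, and 235 held no gene count. The highest negative control probe had 18 counts over the section. Cells were selected as stated in the report. The members and the 24 gene lists were chosen with earlier results of these data known, and the limits of the subgroups after seeing the values. Counts were pooled over cells and divided by the total, with exact Poisson, binomial and conditional ratio intervals (scipy 1.17.1). Genes of the lists could be named, as could the 20 highest and 10 lowest ratios on the same side of 1 in all fields. Ratios count only genes with an expected monocyte count of at least 20, without the rule and C1q genes. Contacts were Delaunay edges of up to 400 µm. With 1 section there was no test. A few genes of the lists and of the lowest ratios are not reported here by name. The ratio was tested on simulated data. Doublets were not called. Sections other than these of 89 weeks and E13.5 were not used here beyond their cell numbers.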

Additional observations from a re-analysis of the deposited data

How the results depend on the processing

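No paired analysis was possible because each condition has 1 section. The share of 1.61% follows the rule: it was 0.546% with at least 5 rule counts, 3.34% with at least 2, 1.15% with at least 2 rule genes detected, 1.42% with no C1q count, 2.73% among cells with at least 50 counts and 1.51% without monocytes with 3 or more counts of the megakaryocyte list, the last chosen after seeing the data. In the fields it was 1.53, 1.53 and 1.75% in those that left the main interval. The share of monocyte contacts that led to a monocyte was 2.01, 8.90, 3.20, 4.10 and 6.52% under the first 5 of these, and 5.17% in the field of high x and low y. Genes at least 2-fold higher ranged from 88 to 171 over the alternatives on the whole section, against 115 in the main comparison. The largest number came from weighting other cells to the depth of the monocytes, which kept 107 of the 115. The 4 fields gave 72, 57, 45 and 74 higher and 189, 160, 140 and 170 lower genes, of 1138 to 1572 counted. An expected count of at least 5 gave 527 lower genes of 3318. For the 30 genes with the highest and lowest ratios, none of 469 values over 16 alternatives changed direction, with values of 0 left out. These genes were chosen as extremes that lay on the same side of 1 in all 4 fields. The 4 fields are among the 16 alternatives, so the values of the fields could not change direction. The 20 high genes stayed at 2.15 or more, and the 10 low genes at 0.387 or less. Depth limits genes under 20 expected counts, among them Vcan, Cx3cr1 and Cd209a.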

Other observations

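Of the remaining lists, each had 1 or 2 genes at least 2-fold higher in the monocytes, beside 4.42% higher and 11.7% at 0.5 or below over all genes. Of 14 Fc and paired receptor genes, Fcgr1 was the only gene at least 2-fold higher and Fcgr4, the IgG receptor of nonclassical monocytes and neutrophils, at 0.326, the only gene at 0.5 or below. The median ratio was 1.48, and Pirb, an inhibitory receptor, was at 1.99. Of 7 coagulation and matrix genes outside the rule, Fn1 was the only gene past 2-fold, Thbs1, thrombospondin, was at 1.25, and Tgm2, a transglutaminase, was at 0.423. Of 9 progenitor genes, Cd34 and Flt3 were past 2-fold, Gata2 was at 0.425, and the median was 0.976. Of 11 dendritic cell and MHC class II genes, Flt3 was past 2-fold, Cd74 and Siglech, a marker of plasmacytoid dendritic cells, at 0.236, were at 0.5 or below, and the median was 0.798. The C1q limit bears on this list too, which was at 28755 CPM in C1q-positive cells against 7863 CPM in the monocytes.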
